A study of Rattus norvegicus with 19 samples.

Results

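The comparison set 4 arrays of immature Leydig cells against 5 arrays of stem Leydig cells, which are 9 of the 19 rat arrays in the study. It spans the lineage from its stem cell to the stage before the adult cell. Arrays were assigned to the groups by title alone. The comparison, the gene lists and the tests were chosen with earlier results of these data known. All cells came from the Sprague-Dawley strain, and the labels name no allele, transgene or treatment. The other 10 arrays, of 3 progenitor, 4 adult and 3 bone stem cell samples, entered the model only to steady the estimate of the spread, apart from the progenitor arrays, which were also compared directly with the immature ones. Ages, the way the cells were isolated, and whether any group was cultured were not given in the sources at hand, so that none of these can be told apart from the stage. Whether the arrays of a group hold RNA of separate animals or cultures is not stated either. The p-values therefore speak only of the spread among these arrays, which may be technical.

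Leydig cells are the cells between the seminiferous tubules of the testis that make testosterone. The adult lineage arises after birth from spindle-shaped stem cells, which pass through a progenitor and an immature stage. Cholesterol enters the mitochondrion, where Cyp11a1 cuts its side chain, and Hsd3b1, Cyp17a1 and Hsd17b3 complete the path to testosterone under the drive of luteinizing hormone. Immature Leydig cells are known for reducing much of the androgen they make, and stem cells for lacking the steroid enzymes and the luteinizing hormone receptor.

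The 2 groups differed widely. Of 31042 probe sets tested, 12324 (39.7%) were called at an adjusted p under 0.05, with 7308 (23.5%) higher and 5016 (16.2%) lower in immature cells. At gene level, with 1 probe set for each of 14217 genes, 7085 (49.8%) were called, 4119 higher (29.0%) and 2966 lower (20.9%). With a 2-fold minimum 4532 probe sets (14.6%) were called, 2502 higher (8.06%) and 2030 lower (6.54%), and the arrays of the groups did not overlap at 9751 (31.4%). A call is therefore common here, and the list counts below are read against these shares. The first principal component of the 9 arrays held 74.9% of the variance and placed the immature arrays between -92.9 and -80.1 and the stem arrays between 66.8 and 72.4. The split between higher and lower calls depended on the scaling. With each array centred on its median 34.9% of calls were higher, and with quantile normalization 49.2%, against 59.3% as scaled by the authors. Median centring moved the median log2 difference of all probe sets by -0.23, to -0.13, against 0.10 as deposited.

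Signals are MAS5 intensities with a trimmed mean of 100 on every array, and each log2 difference below is immature minus stem on the log2(signal + 16) scale, given with its standard error. Means are given with the SD over 4 immature or 5 stem arrays. That scale understates the fold of a gene that is dim in one group. Median signals of an array ran from 23.6 to 36.6 in immature and from 21.4 to 24.6 in stem cells, and the ratio of 3' to 5' beta-actin signal from 1.54 to 1.7 in immature and from 1.03 to 1.84 in stem cells. Immature replicates 2 and 3 were the closest pair of their group, with a median absolute difference of 0.0892 on the log2 scale over 5243 bright probe sets, against 0.212 to 0.327 for the other immature pairs, and the labels do not say whether they share a preparation. With both averaged and counted as 1 sample, 11146 probe sets were called. The mean correlation of immature replicate 4 across probe sets was 0.972 with the progenitors and 0.959 with the remaining immature arrays. Without it 12086 probe sets were called, 7217 higher and 4869 lower. In bulk RNA, fewer cells of a type and less RNA per cell cannot be told apart.

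The testosterone synthesis list had the largest median difference of the 26 lists. Of its 10 measured members, 5 rose, none fell and 5 did not pass the test, and the median log2 difference was 2.22, against 0.10 over all genes. Cyp17a1, which turns progestins into androgens, had signals of 2758, 5283, 5344 and 6207 in immature cells, against 1.6, 0.5, 0.8, 0.8 and 1.8 in stem cells. Its difference of 8.11 ± 0.21 (adjusted p = 1.04e-16) was the widest of all genes named here. The 5 stem values lay at the bottom of the scale, and the groups were far apart. Hsd3b1, which makes the first active progestin, had signals of 2182, 3993, 4055 and 4875 in immature cells, against 5.6, 13.1, 20.6, 7 and 14.7 in stem cells, a difference of 7.04 ± 0.29 (adjusted p = 8.28e-14). Hsd3b genes are close copies, so that the probe set may read more than 1 of them. Cyp11a1, the mitochondrial enzyme of the first step, had 1758, 2467, 2436 and 2506 in immature cells, against 10.4, 19.1, 12.9, 18.4 and 17.7 in stem cells, and its difference was 6.18 ± 0.15 (adjusted p = 5.86e-17). All 3 were dim on every stem array and bright on every immature array.

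Fdx1, the ferredoxin that hands electrons to Cyp11a1, had signals of 2108, 3229.7, 3373 and 3570.0 in immature cells, against 248, 316, 416, 331 and 257 in stem cells. It differed by 3.22 ± 0.21 (adjusted p = 8.74e-11). Hsd17b3, which makes testosterone from androstenedione, stood at 417, 419, 410.2 and 218 in immature cells, against 16.5, 13.9, 15.2, 8.8 and 16 in stem cells. Immature replicate 4 was the low array, and its value still lay above all stem arrays. The difference was 3.63 ± 0.20 (adjusted p = 8.97e-12).

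Star, which carries cholesterol into the mitochondrion, did not pass the test at its brightest probe set. Its signals were 1356, 1552, 1562 and 1358 in immature cells, against 243, 1446, 391, 657 and 961 in stem cells, and the 5 stem values spread over a range that reached into the immature one. The difference was 1.22 ± 0.59 with an adjusted p of 0.109, and a second Star probe set differed by 1.69 with an adjusted p of 0.00961. With only the 9 arrays in the fit, the brightest probe set had an adjusted p of 0.0312, in a range of 0.0312 to 0.256 over all alternatives. Stem arrays that were dim for Cyp11a1 and Cyp17a1 thus had Star signals of 243 to 1446.

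The general partners of the pathway did not pass the test. Tspo, an outer mitochondrial membrane protein, differed by -0.22 ± 0.23, Por, which supplies electrons to microsomal P450 enzymes, by 0.17 ± 0.14, and Cyb5a, a cytochrome that aids Cyp17a1, by -0.18 ± 0.13. Their adjusted p values were 0.481, 0.375 and 0.284. Hsd3b5 was dim in both groups, at 13.2 ± 12.5 in immature and 6.62 ± 1.89 in stem cells.

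**Figure D1:**
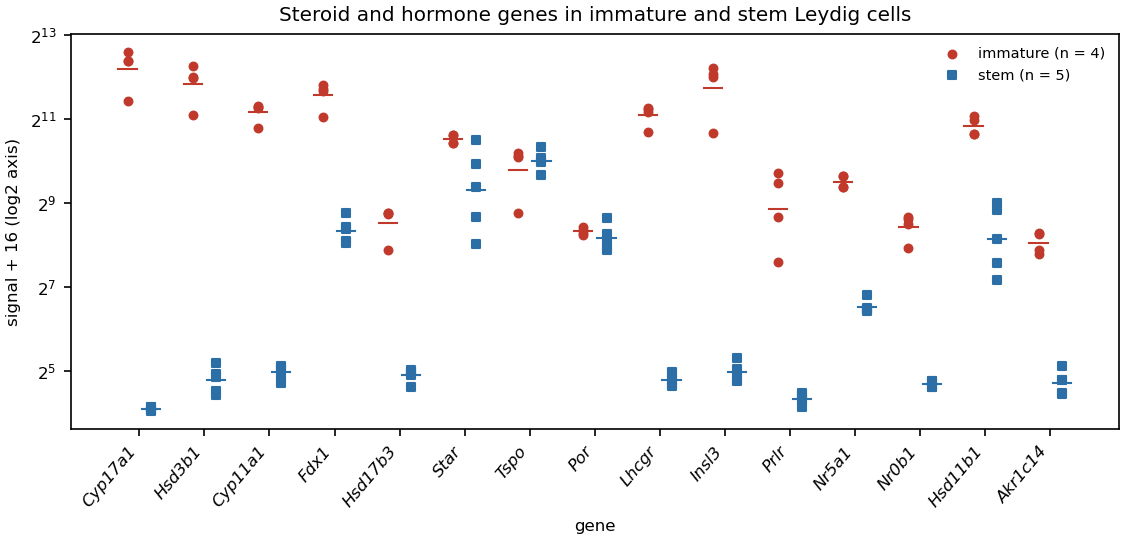
Signals of 15 steroid and hormone genes on the 4 immature arrays (circles) and the 5 stem arrays (squares), as signal + 16 on a log2 axis, with lines at the mean of the log2 values. The arrays of the 2 groups lie apart for Cyp17a1, Hsd3b1 and Cyp11a1 and overlap for Star, Tspo and Por.

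Enzymes that reduce, conjugate or convert steroids rose more often than they fell. Of 27 measured members of the androgen and glucocorticoid metabolism list, 15 rose, 2 fell and 10 did not pass, with a median of 0.56. With median centring 12 rose and 3 fell. Of all genes 29.0% rose and 20.9% fell. Akr1c14, the 3-alpha reductase of androgens, had signals of 297, 220.0, 205 and 291 in immature cells, against 18.7, 5.9, 11.7, 6.3 and 11.5 in stem cells. It was dim on all stem arrays, and the difference was 3.33 ± 0.27 (adjusted p = 3.21e-09). Akr1c19, of the same family, had 443 ± 64 in immature and 28.4 ± 10.5 in stem cells, a difference of 3.39 ± 0.17. Hsd11b1, which interconverts active and inactive glucocorticoid, had 1596, 2150.2, 2008 and 1598 in immature cells, against 129, 269, 443, 496 and 174 in stem cells. It differed by 2.69 ± 0.28 (adjusted p = 1.1e-07). Sult1a1, a sulfotransferase of phenols, had the widest difference of the list at 5.51 ± 0.16, with 1526 ± 305 in immature and 17.4 ± 3.21 in stem cells.

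Several members of the 17-beta dehydrogenase family, which act on steroids or fatty acyl chains, moved in unlike ways. Hsd17b4 (1.87 ± 0.12), Hsd17b8 (1.49 ± 0.14) and Hsd17b11 (1.26 ± 0.12) rose. Hsd17b12 fell, with 463 to 586 in immature cells, against 753 to 1049 in stem cells, a difference of -0.70 ± 0.14 (adjusted p = 0.000281). Cyp1b1, a P450 that hydroxylates estrogens, rose by 0.98 ± 0.17, Srd5a3, named for its likeness to steroid 5-alpha reductases, by 0.57 ± 0.11, and Cyp2a3 by 1.30 ± 0.18. Cyp2a genes are close copies, so the Cyp2a3 reading is uncertain. H6pd, which feeds NADPH to Hsd11b1, fell, with a difference of -0.47 ± 0.15 (adjusted p = 0.0146), with signals of 173, 106, 122 and 114 in immature cells, against 206, 189, 157, 171 and 185 in stem cells. The groups overlapped, and without immature replicate 2 its adjusted p was 0.0612, the highest of the alternatives (lowest 0.000853). Nr3c1, the glucocorticoid receptor, rose by 0.47 ± 0.12, but its call was lost with median centring (adjusted p = 0.18, range over the alternatives 0.000548 to 0.18). It was also lost as the mean of its probe sets (adjusted p = 0.172), and its other probe set was not called (-0.04, adjusted p = 0.904).

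Receptors and regulators of the lineage were next. Of 28 measured members of the Leydig hormone receptors and regulators list, 14 rose, 5 fell and 9 did not pass, with a median of 0.64. Lhcgr, the luteinizing hormone receptor, had signals of 1634, 2457, 2392 and 2279.7 in immature cells, against 11.7, 9.3, 14.4, 15.4 and 9.2 in stem cells. It was dim on every stem array and bright on every immature one, and the difference was 6.29 ± 0.13 (adjusted p = 5.82e-18). Insl3, the peptide hormone of Leydig cells that acts on testis descent, had 1602, 4075, 4290.5 and 4738 in immature cells, against 11, 23.9, 11.7, 17.1 and 15 in stem cells. Immature replicate 1 was the low array of its group but lay far above every stem array, and the difference was 6.76 ± 0.24 (adjusted p = 9.83e-15).

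Nr5a1 (steroidogenic factor 1), the nuclear receptor that drives most steroid genes, had signals of 648, 789, 783 and 654 in immature cells, against 70.5, 75.1, 96.3, 73.6 and 71.4 in stem cells. All 5 stem arrays lay under every immature array, and it differed by 2.98 ± 0.11 (adjusted p = 1.69e-14). Nr0b1, a nuclear receptor that restrains Nr5a1, had 336 ± 74.6 in immature and 9.97 ± 1.42 in stem cells, a difference of 3.73 ± 0.14. Gata4, a transcription factor of the gonadal somatic cells, rose by 1.54 ± 0.19, with 592 to 774 in immature cells, against 190.1 to 269.5 in stem cells. Nr2f2, a nuclear receptor known from stem and progenitor cells of the interstitium, did not pass, with 941 to 1365 in immature cells, against 771 to 1182 in stem cells, a difference of 0.10 ± 0.12 and an adjusted p of 0.57. Another of its probe sets was called higher, by 0.80 (adjusted p = 0.0272), and a further one was not (adjusted p = 0.955).

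The upstream windows of Insl3 and Lhcgr are shown because both genes were dim on every stem array and bright on every immature one. They are the 250 bases before the annotated start, 5' to 3' in the direction of the gene, from RefSeq on build GRCr8. Capitals mark the 7-base cores CAAGGTC or CAAGGCC, which resemble the site that Nr5a1 binds, searched on both strands.
Insl3, chr16:18432939-18433188, + strand: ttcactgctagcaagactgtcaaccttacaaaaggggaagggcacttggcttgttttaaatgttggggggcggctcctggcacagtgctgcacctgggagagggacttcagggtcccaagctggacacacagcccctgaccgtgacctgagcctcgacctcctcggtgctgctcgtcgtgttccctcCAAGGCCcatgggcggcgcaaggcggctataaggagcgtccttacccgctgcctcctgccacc
Lhcgr, chr6:11415165-11415414, + strand: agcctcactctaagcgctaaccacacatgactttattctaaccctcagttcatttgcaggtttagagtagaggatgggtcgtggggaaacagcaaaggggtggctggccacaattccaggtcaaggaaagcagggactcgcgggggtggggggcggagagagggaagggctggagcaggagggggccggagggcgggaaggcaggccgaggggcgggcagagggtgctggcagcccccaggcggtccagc
The Insl3 window holds 1 match, 63 to 57 bases before the start, and the Lhcgr window none. Of the 19 members of the testosterone synthesis and Leydig regulator lists that rose, 17 had a window in the table, and 1 of those 17 held a match, against 8.86% of all 33469 windows. A match is a description of these letters and not a binding site.

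Prlr was among the other members that rose. Prlr, the prolactin receptor, had signals of 178, 695, 823 and 394 in immature cells, against 3.7, 4.4, 6.3, 6 and 1.8 in stem cells. The immature arrays spread widely and all lay far above the stem arrays, a difference of 4.52 ± 0.29 (adjusted p = 9.65e-11). Prkar2b, a regulatory subunit of protein kinase A, differed by 4.50 ± 0.22, with 1691 ± 355 in immature and 59.5 ± 16 in stem cells, and Prkaca, a catalytic subunit, by 1.24 ± 0.23. Of the phosphodiesterases that break down cyclic AMP, Pde8b rose by 0.90 ± 0.28, and Pde8a did not pass (0.39 ± 0.15, adjusted p = 0.0508). The Pde8b groups overlapped. Its call was lost without immature replicate 3 (adjusted p = 0.0702) and with immature replicates 2 and 3 averaged (0.0504). Its other probe set was not called (0.41, adjusted p = 0.0643). Inha, the alpha subunit of inhibin, had 1111 ± 318 in immature and 49.4 ± 14.3 in stem cells, a difference of 4.08 ± 0.18. Amhr2, the receptor of anti-Müllerian hormone, had 128 to 374 in immature cells, against 2.7 to 14 in stem cells, a difference of 3.62 ± 0.28. Avpr1a, a vasopressin receptor, rose by 1.03 ± 0.21. Esr1, an estrogen receptor, rose by 0.97 ± 0.21, with dim signals of 3.6 to 36.4 in immature cells, against 1 to 2 in stem cells. Ghr, the growth hormone receptor, differed by 0.32 ± 0.21 (adjusted p = 0.247).

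The members that fell were Inhba, Adcyap1r1, Adcy3, Nr2f1 and Igf1r. Inhba, the beta A subunit of inhibin and activin, had signals of 27.8, 15.5, 14.7 and 117 in immature cells, against 1441, 1465, 1252, 1335 and 1609.7 in stem cells. Immature replicate 4 was the highest of its group and lay far under every stem array, and the difference was -4.88 ± 0.30 (adjusted p = 4.77e-11). Inha and Inhba thus went in opposite directions. Adcyap1r1, the receptor of the peptide PACAP, had 7.41 ± 4.88 in immature and 132 ± 58.8 in stem cells, a difference of -2.59 ± 0.29. Its other probe sets were not called, with differences of -0.15, 0.05 and 0.09. Adcy3, an adenylyl cyclase, had 35.1 ± 6.17 in immature and 161 ± 15.3 in stem cells, a difference of -1.79 ± 0.21 (adjusted p = 8.07e-07). Nr2f1, a nuclear receptor, had 6.13 ± 3.61 in immature and 34.7 ± 9.19 in stem cells (-1.19 ± 0.20). Igf1r, the receptor of insulin-like growth factor 1, fell, with a difference of -0.87 ± 0.24 (adjusted p = 0.0065) with overlapping groups, 100.6 to 255 in immature cells, against 193 to 491 in stem cells. As the mean of all its probe sets it did not pass (adjusted p = 0.14, range over the alternatives 0.000211 to 0.14).

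Cholesterol supply was mixed. Of 33 measured members of the cholesterol list, 14 rose, 6 fell and 13 did not pass, with a median of 0.25, and with median centring 10 rose and 11 fell. Scarb1, the receptor that takes up cholesterol esters from high-density lipoprotein, had signals of 1526, 2169.6, 2158 and 1780.5 in immature cells, against 127, 129, 141, 113 and 110.0 in stem cells. It differed by 3.77 ± 0.14 (adjusted p = 2.2e-14), with no overlap. Abca1, the cholesterol exporter, had 1867 ± 215 in immature and 207 ± 99.7 in stem cells (3.18 ± 0.25), Dhcr7, which closes cholesterol synthesis, 1258 ± 81.3 in immature and 156 ± 37.5 in stem cells (2.91 ± 0.14), and Stard4, a carrier of cholesterol in the cytosol, 156 ± 28.6 in immature and 29.5 ± 5.95 in stem cells (1.91 ± 0.17). Sqle, the squalene epoxidase, fell, with 407 to 511 in immature cells, against 544 to 818 in stem cells, a difference of -0.74 ± 0.13 (adjusted p = 9.28e-05). Fdps, of the early isoprenoid steps, fell (-0.52 ± 0.12), and so did Lipa, the lysosomal lipase (-0.88 ± 0.12).

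Fatty acid genes were split as well. Of 45 measured members of the lipid droplet and fatty acid list, 20 rose, 10 fell and 15 did not pass, with a median of 0.13, and with median centring 15 rose and 15 fell. Cd36, which takes up fatty acids, had signals of 1436, 1809, 1798 and 468 in immature cells, against 18, 10.8, 8.7, 15.8 and 6.7 in stem cells. Immature replicate 4 was the low array and was still above all stem arrays, and the difference was 5.48 ± 0.29 (adjusted p = 4.96e-12). Angptl4, an inhibitor of lipoprotein lipase, had 1228 ± 323 in immature and 22.8 ± 2.74 in stem cells, a difference of 4.96 ± 0.23. Lpl, that lipase itself, ran the other way, with signals of 15.7, 3, 5.2 and 17.4 in immature cells, against 259, 396, 523, 445 and 451 in stem cells. It differed by -4.04 ± 0.26 (adjusted p = 8.79e-11). Fads2, a desaturase, differed by 3.01 ± 0.19 and Acadm, an enzyme of fatty acid oxidation, by 1.62 ± 0.10. Fabp5 and Acsl1, which bind and activate fatty acids, fell, with differences of -2.51 ± 0.22 and -1.88 ± 0.14.

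Other genes among the 12 largest rises are not steroid enzymes of the pathway. Hao2, a peroxisomal hydroxyacid oxidase, had signals of 2313, 4277, 4297 and 2847 in immature cells, against 1, 6.5, 11.4, 5.6 and 5.1 in stem cells, a difference of 7.27 ± 0.21. Ces1d, a carboxylesterase, differed by 7.10 ± 0.24 (2773 ± 582 in immature and 4.17 ± 2.85 in stem cells), and Ass1, which makes argininosuccinate, by 7.0 ± 0.23 (2958 ± 1178 in immature and 6.15 ± 4.53 in stem cells). Adh1c, an alcohol dehydrogenase, differed by 6.26 ± 0.20, Acsbg1, an acyl-CoA synthetase, by 6.87 ± 0.22, and Defb24, of the beta-defensin family, by 6.89 ± 0.20. All 6 were dim on every stem array. Svs5 of the seminal vesicle secretion and Hbb of haemoglobin completed the rises and are given with the marker lists.

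Glutathione enzymes and antioxidants moved in both directions. Of 45 measured members, 20 rose, 12 fell and 13 did not pass, with a median of 0.21, which became -0.02 with median centring. Gstm7 and Gstm1, glutathione transferases, differed by 6.12 ± 0.18 and 3.73 ± 0.22. These genes are close copies of one another, so their signals may be shared. Gpx3, the secreted glutathione peroxidase, fell to 21, 33.1, 46.5 and 14.5 in immature cells, against 1369.9, 1721, 804, 1365 and 1669.7 in stem cells, a difference of -4.97 ± 0.20 (adjusted p = 5.52e-14). Nqo1, a quinone reductase, fell, with 260.4 ± 106 in immature and 2056 ± 352 in stem cells (-2.96 ± 0.17), as did Mgst2, a membrane glutathione transferase (-2.33 ± 0.12).

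**Figure D2:**
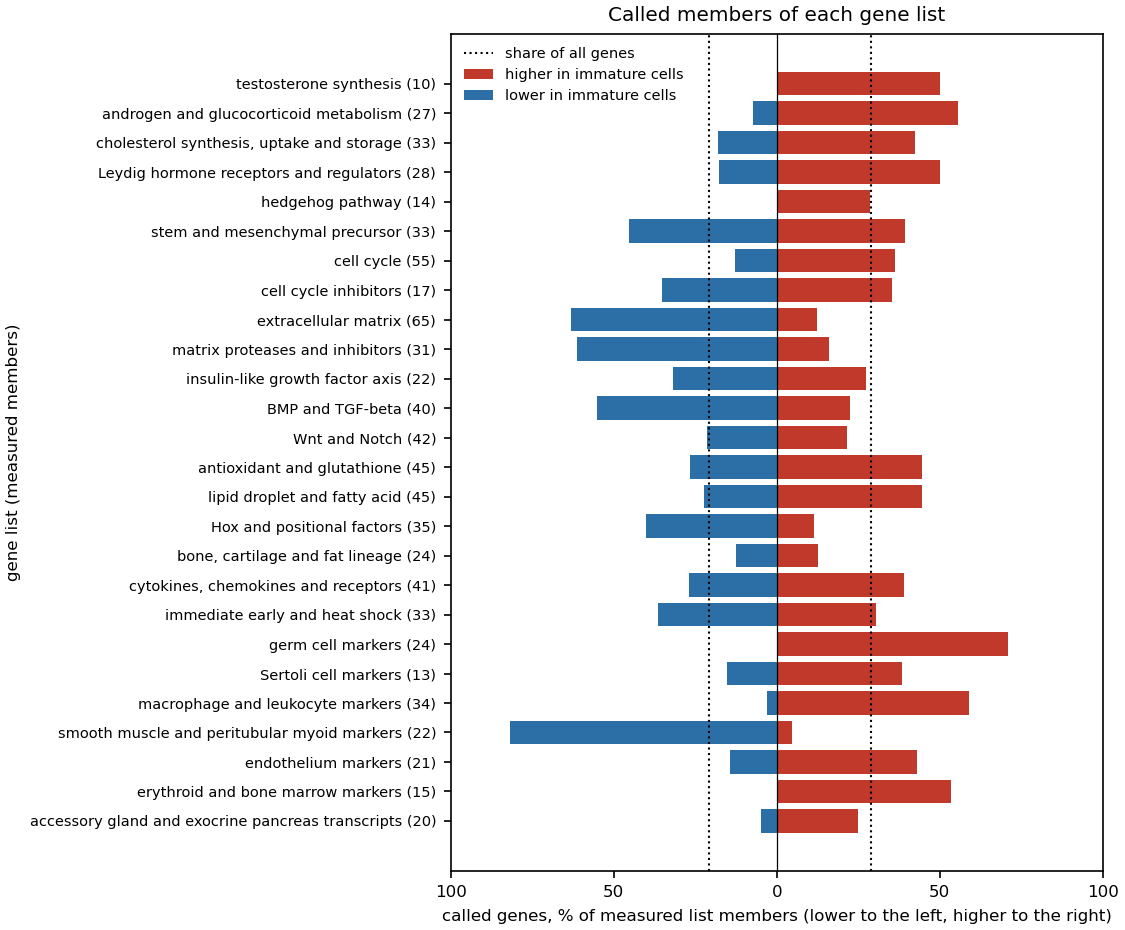
Share of measured members of each of 26 gene lists that were called higher (right) or lower (left) in immature cells, in percent, with the number of measured members in brackets. Dotted lines stand at the shares of all genes, 29.0% higher and 20.9% lower.

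Genes used to mark stem and mesenchymal cells moved both ways, and the balance depended on the scaling. Of 33 measured members, 13 rose, 15 fell and 5 did not pass, with a median of -0.07. With median centring 9 rose and 16 fell, and with quantile normalization 10 rose and 17 fell. The list was called at 84.8%, against 49.8% of all genes, of which 29.0% rose and 20.9% fell. Pdgfra, the receptor often used to mark the stem Leydig cell, was higher in immature cells, with signals of 1563, 2035, 1961 and 2784 in immature cells, against 850.3, 902, 448, 929.6 and 759 in stem cells. It was bright in both groups and differed by 1.42 ± 0.18 (adjusted p = 2.17e-06). Tcf21, a transcription factor of mesenchymal precursors, was also higher, at 375, 343, 339 and 321 in immature cells, against 61.4, 37.2, 40.4, 45.9 and 35.3 in stem cells, a difference of 2.60 ± 0.24 (adjusted p = 1.57e-08). Lifr, the leukaemia inhibitory factor receptor, differed by 1.70 ± 0.14, with 73.4 ± 11 in immature and 11.5 ± 3.28 in stem cells. Of the 8 genes used here to check the label of the stem Leydig cells, these 3 were lower in the cells so labelled, 4 were higher in them, and Nr2f2 did not pass.

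The 4 that fell were Thy1, Pdgfrb, Nes and Itgav. Thy1, a surface glycoprotein of mesenchymal cells, had signals of 47.2, 32.5, 31.6 and 98 in immature cells, against 2312, 1943, 1772, 1794 and 2379 in stem cells. It differed by -5.00 ± 0.23 (adjusted p = 5.45e-13). Pdgfrb, the second receptor of that family, had 29.5, 19.4, 16 and 40 in immature cells, against 619, 476, 345, 724 and 531 in stem cells, a difference of -3.71 ± 0.22 (adjusted p = 3.31e-11). Nes, an intermediate filament of precursor cells, had 20.1 ± 14.2 in immature and 242 ± 55 in stem cells (-2.88 ± 0.23), and Itgav, the alpha V integrin, 184 ± 49.8 in immature and 651 ± 126 in stem cells (-1.74 ± 0.19). Elsewhere in the list, Pdgfa, a ligand of Pdgfra, had 41.7 ± 12 in immature and 518 ± 98.7 in stem cells, a difference of -3.22 ± 0.18, opposite to its receptor. Vim, the filament of mesenchymal cells, was bright in both groups and did not pass (-0.07 ± 0.22).

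Mcam (CD146) and Cspg4 (NG2), surface proteins also used to mark pericytes, were among the members that fell. Mcam had signals of 16.6, 19.9, 14.2 and 63.2 in immature cells, against 1431, 1173, 1100.4, 1108 and 1521 in stem cells, and the difference was -4.96 ± 0.38 (adjusted p = 1.2e-09). Cspg4 had 5.16 ± 4.48 in immature and 303 ± 53.7 in stem cells, a difference of -3.92 ± 0.22. Prrx1, a mesenchymal transcription factor, fell (-2.81 ± 0.20), as did Eng, a co-receptor of TGF-beta (-2.12 ± 0.24). Of the members that rose, Vcam1, an adhesion molecule, had signals of 1277, 1175, 1227 and 902 in immature cells, against 7.6, 17.6, 15.4, 13.2 and 12.2 in stem cells, and its difference of 5.31 ± 0.18 (adjusted p = 5.53e-15) was the widest of the list. Kit, a receptor tyrosine kinase, differed by 2.84 ± 0.29 (143 ± 59.5 in immature and 5.11 ± 2.94 in stem cells) and Kitlg, its ligand, by 2.07 ± 0.29 (515 ± 252 in immature and 111 ± 47.4 in stem cells). Nt5e (CD73), a nucleotidase used as a mesenchymal marker, differed by 2.31 ± 0.15.

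**Figure D3:**
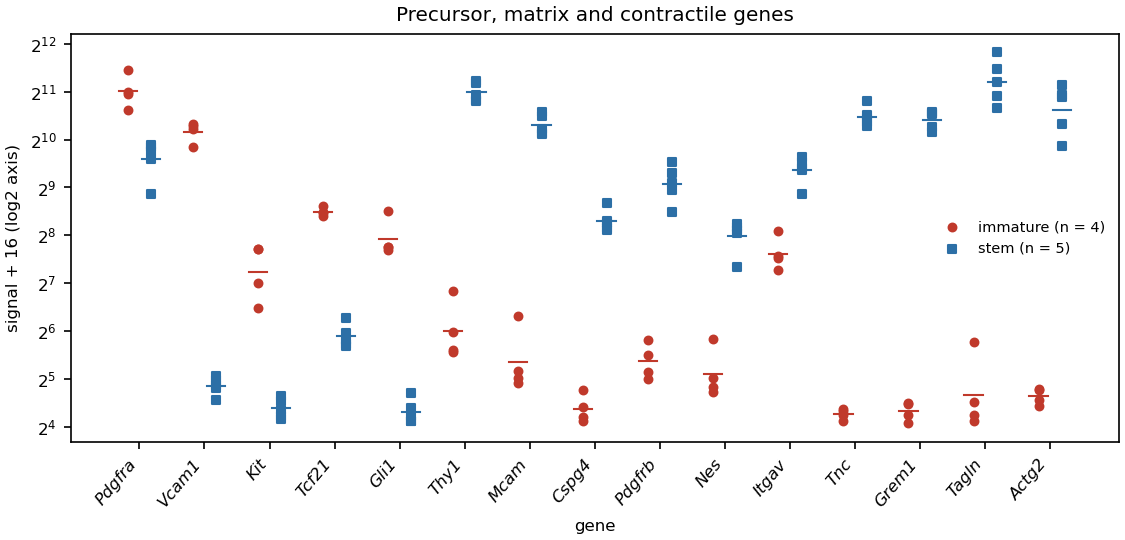
Signals of 15 precursor, matrix and contractile genes on the 4 immature arrays (circles) and the 5 stem arrays (squares), as signal + 16 on a log2 axis, with lines at the mean of the log2 values. Pdgfra, Vcam1, Kit, Tcf21 and Gli1 lie higher in immature cells and the other 10 lower.

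Most Hedgehog genes did not pass the test. Of 14 measured members, 4 rose, none fell and 10 did not pass, and with median centring 2 rose. The share that rose was close to that of all genes. Gli1, a transcription factor that the pathway itself switches on, had signals of 191, 201, 200.1 and 346 in immature cells, against 10, 2.6, 5.1, 1.5 and 1.4 in stem cells. It differed by 3.62 ± 0.24 (adjusted p = 1.6e-10). Cdon, a co-receptor, rose by 0.81 ± 0.19, Stk36, a kinase, by 0.60 ± 0.17 and Gli2 by 0.52 ± 0.18. The Gli2 call was lost without immature replicate 4 (adjusted p = 0.11), without stem replicate 2 (0.0759) and without stem replicate 3 (0.0591), in a range of 0.0158 to 0.202 over the alternatives. Smo, the signal transducer, and Dhh, the ligand that Sertoli cells make, did not pass, with adjusted p values of 0.0742 and 0.453.

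The extracellular matrix list was the longest of the 26 and held the most falls by count. Of its 65 measured members, 8 rose, 41 fell and 16 did not pass, with a median of -1.57. Of all genes 20.9% fell. By share of members, the smooth muscle markers given below fell more often, at 18 of 22. Tnc (tenascin C) had signals of 4.6, 1.3, 2.9 and 4.1 in immature cells, against 1380.1, 1442, 1304, 1229.6 and 1766 in stem cells. All immature arrays lay at the bottom of the scale, and the difference was -6.22 ± 0.13 (adjusted p = 5.88e-18). Col8a1, a short-chain collagen, had 1.9, 4.3, 4 and 1.9 in immature cells, against 1796, 654, 1098, 715 and 799 in stem cells, a difference of -5.66 ± 0.21 (adjusted p = 1.77e-14). Col12a1, a collagen that lies along fibrils, had 9.66 ± 3.44 in immature and 845 ± 87.6 in stem cells (-5.07 ± 0.15). P4ha3, which hydroxylates proline in collagen, had 15.4 ± 4.68 in immature and 1074 ± 212 in stem cells (-5.11 ± 0.16), and Fbln2 (fibulin 2) 17.4 ± 10.1 in immature and 1469 ± 513 in stem cells (-5.45 ± 0.26).

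The 8 that rose include Sparcl1, a matricellular protein, with 719 ± 149.8 in immature and 19.8 ± 10.3 in stem cells (4.38 ± 0.25), Matn2 (matrilin 2), with 722 ± 175 in immature and 22.2 ± 13.6 in stem cells (4.29 ± 0.20), and Lama2, a laminin chain, with 1471 ± 592 in immature and 266 ± 60.8 in stem cells (2.36 ± 0.30). Among matrix proteases and their inhibitors, 5 of 31 measured members rose, 19 fell and 7 did not pass, with a median of -1.17. Serpine2, an inhibitor of thrombin and urokinase, had signals of 2.3, 8.8, 17.8 and 5.4 in immature cells, against 1051, 1326, 1139, 1156 and 1396 in stem cells. It differed by -5.67 ± 0.14 (adjusted p = 6.45e-17). Mmp16, a membrane-bound metalloprotease, fell (-3.68 ± 0.20), as did Plaur, the urokinase receptor (-2.97 ± 0.20). Timp3, an inhibitor of metalloproteases, rose by 3.12 ± 0.27, with 1094 ± 253 in immature and 114 ± 43 in stem cells.

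Contractile genes fell with the matrix. Tagln (transgelin) had signals of 7, 1.4, 3.1 and 38.9 in immature cells, against 3608, 2329, 1904, 1601 and 2827 in stem cells, and its difference of -6.54 ± 0.47 (adjusted p = 4.99e-10) was the widest fall. Actg2, a smooth muscle actin, had 7.7, 11.6, 5.7 and 11.4 in immature cells, against 2230.3, 1273, 1927, 913 and 1889 in stem cells, a difference of -5.99 ± 0.25 (adjusted p = 1.21e-13). Cnn1 (calponin 1) and Des (desmin) had 11.3 ± 8.35 in immature and 852 ± 276 in stem cells and 34.2 ± 6.14 in immature and 1094 ± 141 in stem cells, differences of -4.98 ± 0.27 and -4.47 ± 0.25. Of 22 measured smooth muscle and peritubular myoid markers, 18 fell, 1 rose and 3 did not pass, and their summed signal was 6118.5 to 8825.4 on the immature arrays, against 18245.7 to 37707.8 on the stem arrays. The marker that rose was Aoc3, an amine oxidase (1.09 ± 0.20). The part of contractile cells in the matrix and precursor results was not tested.

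The remaining large falls belong to no 1 group. Cpe, a carboxypeptidase that processes hormones, had 23.7 ± 17.7 in immature and 2270.4 ± 599 in stem cells (-5.92 ± 0.40), Bcat1, an aminotransferase of branched amino acids, 4.07 ± 2.75 in immature and 967 ± 141 in stem cells (-5.61 ± 0.14), Aqp1, a water channel, 16.5 ± 9.2 in immature and 1469 ± 205 in stem cells (-5.54 ± 0.17), and Enpp1, which makes pyrophosphate, 22.6 ± 4.25 in immature and 1735 ± 460.0 in stem cells (-5.47 ± 0.19).

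Genes of BMP and TGF-beta signalling fell more often than they rose. Of 40 measured members, 9 rose, 22 fell and 9 did not pass, with a median of -0.68. Of all genes 29.0% rose and 20.9% fell. Grem1 (gremlin 1), a secreted antagonist of BMPs, had signals of 0.8, 2.9, 6.7 and 6.4 in immature cells, against 1465, 1129, 1211, 1482 and 1506 in stem cells. It differed by -6.09 ± 0.16 (adjusted p = 8.61e-17). Ltbp2, which is related to the binding proteins of latent TGF-beta, had 10.9 ± 9.77 in immature and 1042 ± 284 in stem cells (-5.32 ± 0.23), and Fstl3, an antagonist of activin, 22.2 ± 2.53 in immature and 575 ± 95.1 in stem cells (-3.94 ± 0.15). Id3, a target that BMPs switch on, had 196, 176, 158 and 174 in immature cells, against 1643, 1322, 1935, 1349 and 1487 in stem cells, a difference of -3.02 ± 0.18 (adjusted p = 4.06e-11). The ligands Bmp7 and Bmp4 rose by 1.68 ± 0.14 and 1.17 ± 0.19. Tgfbi, a matrix protein named for its induction by TGF-beta, rose by 3.96 ± 0.15, with 1440.0 ± 314 in immature and 77.4 ± 18 in stem cells.

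The insulin-like growth factor axis was split. Of 22 measured members, 6 rose, 7 fell and 9 did not pass, with a median of -0.01. The list was called at 59.1%, against 49.8% of all genes. Igf1, the growth factor, had signals of 1531, 3004, 2732 and 2319 in immature cells, against 253, 124, 98.8, 123 and 146 in stem cells. It differed by 3.89 ± 0.21 (adjusted p = 4.26e-12). Its binding proteins Igfbp2 (5.66 ± 0.29), Igfbp5 (5.07 ± 0.25) and Igfbp3 (1.98 ± 0.30) rose as well, with Igfbp2 at 3981 ± 1124 in immature and 61.5 ± 17 in stem cells. The RNA-binding proteins Igf2bp2 and Igf2bp3 fell (-2.72 ± 0.21 and -2.20 ± 0.22), as did Htra1, a protease that cuts binding proteins (-2.34 ± 0.15).

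In the Wnt and Notch list, 9 of 42 measured members rose, 9 fell and 24 did not pass, with a median of 0.02, and with median centring 8 rose and 14 fell. The list was called at 42.9%, under the 49.8% of all genes. The ligands Wnt6 and Wnt5b rose, with 367 ± 108 in immature and 14.3 ± 4.12 in stem cells and 173 ± 44.7 in immature and 7.99 ± 6.18 in stem cells, differences of 3.62 ± 0.18 and 2.98 ± 0.20. The ligand Wnt5a fell, with 13.9 to 43.2 in immature cells, against 89.6 to 248 in stem cells, a difference of -1.94 ± 0.24 (adjusted p = 1.13e-06). Sfrp1, a secreted Wnt inhibitor, rose by 2.63 ± 0.26. Dkk3, of the Dickkopf family, fell (-3.84 ± 0.19), as did the receptor Fzd1 (-1.93 ± 0.20).

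Hox and other positional transcription factors fell more often than they rose, with 4 of 35 measured members higher, 14 lower and 17 not passing, and a median of -0.11. Of all genes 29.0% rose and 20.9% fell. Hoxd10 had signals of 74.3, 59.7, 60.5 and 55.5 in immature cells, against 303, 205, 247, 208 and 211 in stem cells. It differed by -1.67 ± 0.14 (adjusted p = 4.6e-09), and Meis1 and Pbx3, partners of Hox proteins, by -1.63 ± 0.12 and -1.80 ± 0.18. Hoxd8, of the same cluster as Hoxd10, rose by 0.61 ± 0.10, and Osr2, a zinc finger factor, by 3.45 ± 0.22. In the bone, cartilage and fat list, 3 of 24 measured members rose and 3 fell (1 and 6 with median centring), under the share of all genes. Dmp1, a matrix protein of bone, rose by 2.42 ± 0.22, with 133 ± 49 in immature and 10.8 ± 3.4 in stem cells, and Runx1, a transcription factor, fell (-3.13 ± 0.17), with 29.1 ± 6.32 in immature and 378 ± 51.4 in stem cells.

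The cell cycle did not move one way. Of 55 measured members, 20 rose, 7 fell and 28 did not pass, with a median of 0.34. The list was called at 49.1%, close to the 49.8% of all genes. The members that rose did so modestly. Mcm3, of the replication helicase, had signals of 251, 181, 208 and 275 in immature cells, against 62.9, 110.1, 65.1, 100.1 and 74 in stem cells. It differed by 1.32 ± 0.20 (adjusted p = 1.8e-05). Nusap1 and Kif20a, of the spindle, rose by 1.17 ± 0.18 and 0.93 ± 0.13, and Ccnd3 (cyclin D3) by 0.64 ± 0.10.

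The falls were led by other cyclins. Ccnd1 (cyclin D1), which carries growth signals into the cycle, had signals of 37.2, 37.3, 34.8 and 44.7 in immature cells, against 578, 1257, 1048, 1279 and 1257 in stem cells. Stem replicate 1 was the low stem array and still lay far above every immature one, and the difference was -4.28 ± 0.19 (adjusted p = 4.1e-13). Ccnd2 (cyclin D2) had 18.6, 48.3, 46.3 and 53.5 in immature cells, against 569.5, 273, 512, 240.1 and 219 in stem cells, a difference of -2.66 ± 0.26 (adjusted p = 5.67e-08). Ccne1 and Ccna2, the cyclins of the start and course of DNA replication, fell (-1.10 ± 0.20 and -0.80 ± 0.17).

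Inhibitors of the cycle split into opposite sets. Of 17 measured members, 6 rose, 6 fell and 5 did not pass, with a median of 0.07. Cdkn2a, whose locus encodes p16 and ARF, had signals of 8.4, 13, 1.2 and 6 in immature cells, against 786, 480.4, 569.5, 484 and 763 in stem cells. It differed by -4.77 ± 0.17 (adjusted p = 1.28e-14). Cdkn2b (p15), its neighbour, had 8.3, 2, 12.9 and 2.5 in immature cells, against 536, 459, 160.5, 357 and 401 in stem cells, a difference of -4.08 ± 0.27 (adjusted p = 1.09e-10). Cdkn1a (p21), a target of p53, had 156, 134, 99.3 and 98.5 in immature cells, against 802, 747, 1075, 760.3 and 1096 in stem cells, a difference of -2.73 ± 0.17 (adjusted p = 7.15e-11). All 3 were lower on every immature array than on any stem array.

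Cdkn1b (p27) ran the other way, with signals of 595, 546, 697 and 725 in immature cells, against 328, 189.7, 179, 170.5 and 183 in stem cells, a difference of 1.57 ± 0.18 (adjusted p = 4.71e-07). Cdkn2c (p18) rose by 1.61 ± 0.17, with 235 ± 28.8 in immature and 67.2 ± 16 in stem cells. Cdkn1c (p57) rose by 1.60 ± 0.26, with signals of 130.1, 121, 124 and 431 in immature cells, against 48.7, 32.3, 54.9, 60.6 and 38.1 in stem cells, of which immature replicate 4 was the high array.

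**Figure D4:**
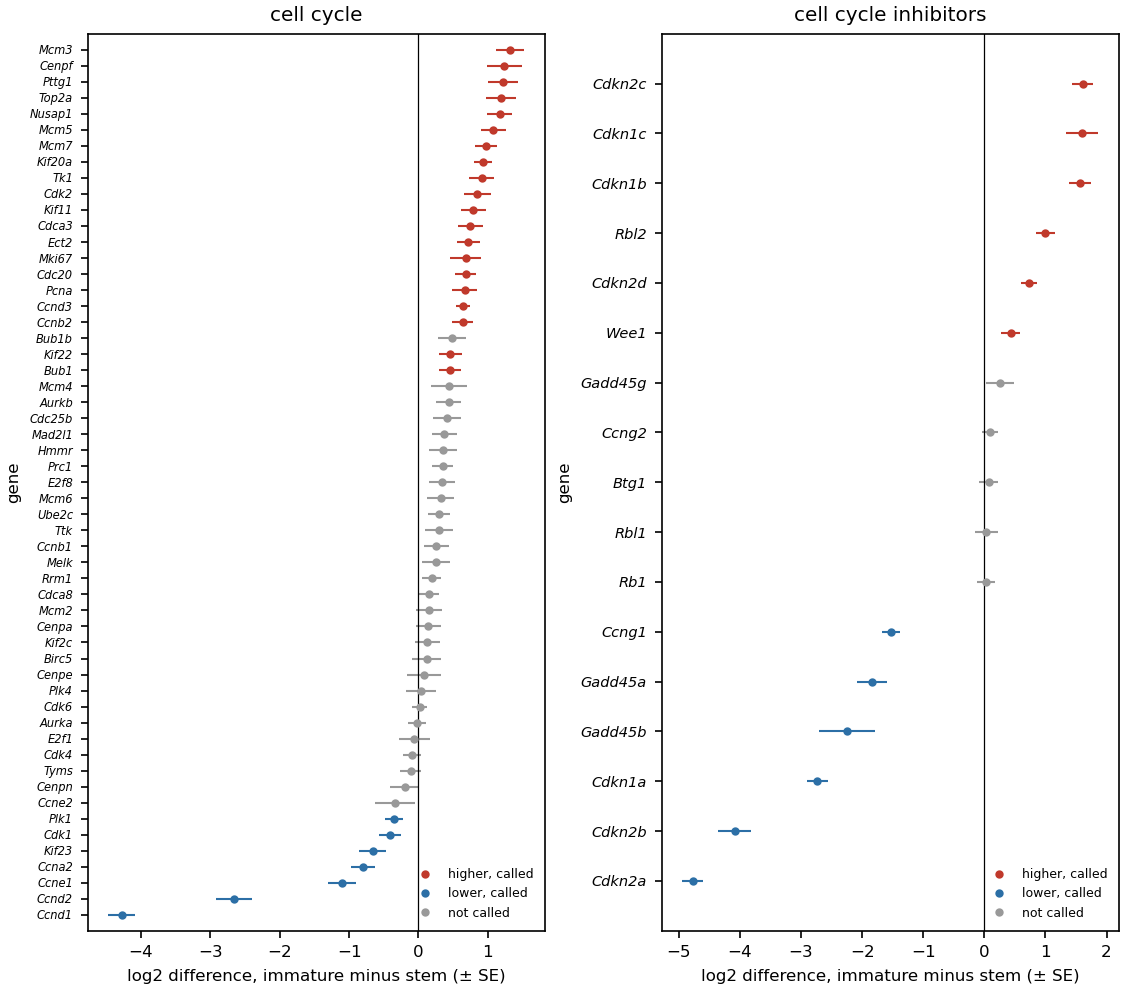
Log2 difference, immature minus stem, of each measured cell cycle gene (left) and cell cycle inhibitor (right), with bars of 1 standard error, coloured by whether the gene was called. Ccnd1 and Ccnd2 lie far below the other cyclins, and Cdkn2a, Cdkn2b and Cdkn1a lie opposite to Cdkn1b, Cdkn1c and Cdkn2c.

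Cytokine and stress genes were mixed. Of 41 measured cytokines, chemokines and receptors, 16 rose, 11 fell and 14 did not pass, and with median centring 12 rose and 13 fell. Il1rl1, the receptor of interleukin 33, had signals of 6.9, 1.8, 5 and 8.9 in immature cells, against 2046, 965, 1239.5, 1183 and 1580.2 in stem cells. It differed by -6.0 ± 0.18 (adjusted p = 5.26e-16). Tnfrsf12a, a receptor of the TNF family, fell (-4.85 ± 0.20), as did Ptgs1, a cyclooxygenase (-4.44 ± 0.22). The chemokine Ccl5 had 1583, 1436, 1126 and 2229 in immature cells, against 3.8, 3.2, 7.4, 9.7 and 2.2 in stem cells, a difference of 6.21 ± 0.36 (adjusted p = 2.07e-11). Ccl11 and Il18 rose by 4.37 ± 0.31 and 3.25 ± 0.12.

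Beside Ccl5 stand the macrophage and leukocyte markers, of which 20 of 34 rose, 1 fell and 13 did not pass. Their summed signal was 8304.9 to 16431.6 on the immature arrays, against 2495.7 to 3766.2 on the stem arrays, and 16 of the 34 were under 16 on all stem arrays. Cd7, of T and natural killer cells, had 1254, 862, 799 and 2223 in immature cells, against 22.8, 13.1, 18.2, 16.9 and 15.4 in stem cells, and Gzma, a granule protease of such cells, 659, 322, 305 and 1113 in immature cells, against 4.9, 5.7, 13, 1.5 and 7.7 in stem cells. Immature replicate 4 was the highest of its group for both and for Ccl5. Their differences were 5.17 ± 0.27 and 4.59 ± 0.27, and that of Laptm5, a lysosomal protein of blood cells, 4.19 ± 0.25. Cd14, a receptor of macrophages, fell (-1.65 ± 0.13). Lgals3 (galectin 3), at 1846 to 2820.2 in immature cells, against 1457 to 2273 in stem cells, did not pass. The part of leukocytes in the cytokine results was not tested.

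In the immediate early and heat shock list, 10 of 33 measured members rose, 12 fell and 11 did not pass. Dusp6, an early response gene of this list, fell (-2.67 ± 0.23), and the chaperone gene Hspd1 rose (0.86 ± 0.14). Neither is among the 187 named genes counted below. The immediate early genes Jun and Zfp36 rose by 1.59 ± 0.25 and 2.09 ± 0.28, with Jun at 1205, 1372, 1342 and 3000.1 in immature cells, against 498, 626, 476, 471 and 556 in stem cells. The small heat shock proteins fell, Hspb1 with 53.6 ± 17.3 in immature and 2242 ± 732 in stem cells (-4.99 ± 0.32), Cryab with 22.2 ± 8.64 in immature and 1135 ± 407 in stem cells (-4.87 ± 0.24) and Hspb8 with 11.7 ± 3.09 in immature and 393 ± 157 in stem cells (-3.78 ± 0.26).

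Markers of red cells, and Svs5 and Cpa1 of the accessory gland and pancreas list, were also higher in immature cells. Hbb, a beta globin, had signals of 2277, 3592, 3372 and 4904 in immature cells, against 2.9, 3.1, 2.3, 4.3 and 2.3 in stem cells, a difference of 7.5 ± 0.26 (adjusted p = 5.75e-15). It is 1 of several near-identical globin genes, so that the probe set may read others. Of 15 measured erythroid markers 8 rose and none fell (7 and 1 with median centring), where 29.0% of all genes rose. Their summed signals were 3602.7 to 6210.9 on the immature arrays, against 310.8 to 464.3 on the stem arrays. Hbb made up most of each immature sum and Bpgm, at 238 to 390, most of each stem sum. Of the 15, 11 were under 16 on all stem arrays. Alas2, the haem enzyme of red cells, and Bpgm rose by 3.31 ± 0.21 and 1.68 ± 0.15. Svs5 of the seminal vesicle had 2182, 3882, 3871 and 3456 in immature cells, against 9.4, 2.9, 3.2, 5.9 and 5.5 in stem cells, a difference of 7.27 ± 0.17 (adjusted p = 1.6e-17). Cpa1, a pancreatic carboxypeptidase, had 166, 182, 181 and 1563 in immature cells, against 7.9, 5.6, 7.7, 7 and 1.6 in stem cells, with immature replicate 4 far above the other 3, and a difference of 3.90 ± 0.42. Of 20 measured accessory gland and pancreas transcripts 5 rose and 1 fell (3 and 4 with median centring), where 29.0% of all genes rose. Of the 20, 17 were under 16 on all stem arrays. Their summed signals were 2485.7 to 5171.4 on the immature and 133.0 to 281.0 on the stem arrays, and Svs5 made up most of each immature sum. The part of red cell and accessory gland transcripts in the other results was not tested.

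Germ cell markers rose in 17 of 24 measured cases and fell in none, with a median of 0.95, where 29.0% of all genes rose. With median centring 16 rose and 1 fell. Of the 24, 17 were under 16 on all stem arrays. Their summed signals were 1052.8 to 1955.3 on the immature arrays, against 473.7 to 548.8 on the stem arrays. Sycp3, of the meiotic chromosome axis, had 107, 52.9, 50.1 and 80.3 in immature cells, against 4.7, 5.4, 6.6, 7.6 and 6.5 in stem cells, a difference of 1.95 ± 0.18 (adjusted p = 2.08e-08), and Akap3, of the sperm tail, and Prm3 rose by 1.71 ± 0.16 and 1.43 ± 0.15. Odf2, of the sperm tail, did not pass (-0.28 ± 0.11, adjusted p = 0.0556), though its groups did not overlap. It had 184 to 229 in immature cells, against 231 to 305 in stem cells. Several alternatives called it lower, among them median centring (-0.51, adjusted p = 0.00343). Another of its probe sets was called higher, by 0.63 (adjusted p = 0.00868). Among Sertoli cell markers 5 of 13 rose and 2 fell, where 29.0% of all genes rose and 20.9% fell. Their summed signals were 2352.2 to 3155.5 on the immature and 2659.5 to 4045.0 on the stem arrays. Ctsl made up most of each stem sum and fell, with 987 ± 68.7 in immature and 2424 ± 440 in stem cells (-1.27 ± 0.14). It is not among the 187 named genes counted below. Cldn11, a junction protein, rose by 4.72 ± 0.23 and Aard by 2.23 ± 0.36, and Clu (clusterin) fell (-1.11 ± 0.17).

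Endothelium markers rose in 9 of 21 measured cases and fell in 3, with summed signals of 701.3 to 1549.6 on the immature and 1098.0 to 1291.4 on the stem arrays. Without immature replicate 4, 4 rose and 3 fell, and with median centring 4 rose and 4 fell. Pecam1 and Plvap rose by 1.74 ± 0.19 and 1.38 ± 0.16, and Flt1, a receptor of vascular endothelial growth factor, fell (-1.97 ± 0.21). Cldn5 rose by 1.83 ± 0.46, with signals of 48.5, 43.8, 70.6 and 295 in immature cells, against 11.2, 6.8, 28.5, 11.5 and 8.2 in stem cells, of which immature replicate 4 was the high array.

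**Figure D5:**
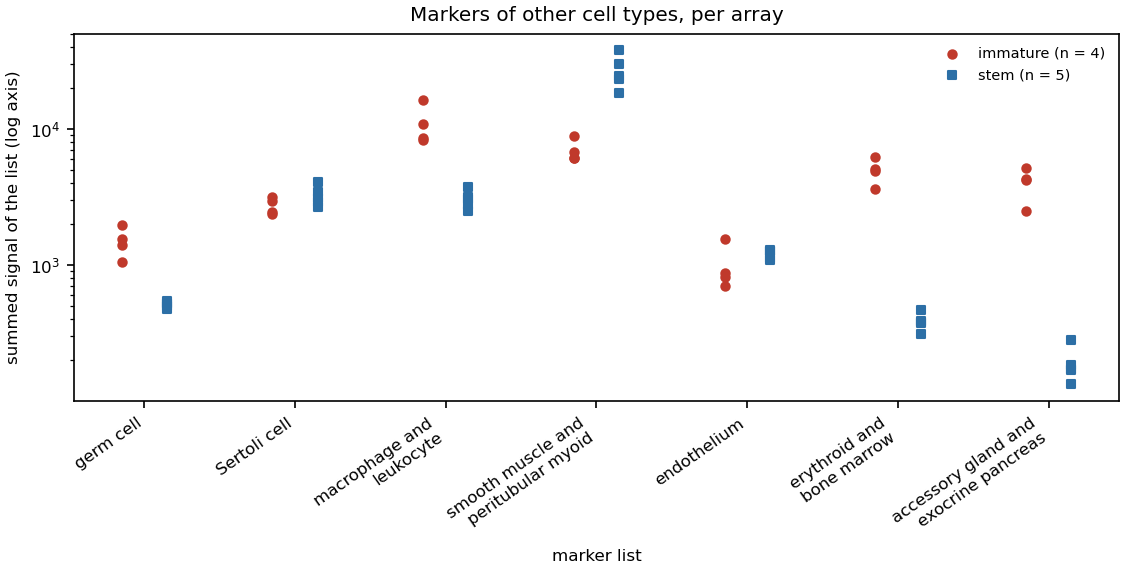
Summed signal of the measured markers of 7 other cell types or glands on each immature (circles) and stem (squares) array, on a log axis. Germ cell, leukocyte, erythroid and accessory gland sums are higher on all 4 immature arrays than on any stem array, and the smooth muscle sum is lower.

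The immature arrays were also set against the 3 progenitor arrays, the nearest earlier stage, to see at which of these genes the immature cells differ from it. This comparison shares the immature arrays with the one above. Progenitor replicate 3 had a ratio of 3' to 5' beta-actin signal of 6.35, against 1.29 and 1.5 on the other progenitor arrays, and its part in the results was not tested beyond leaving it out. It called 404 probe sets (1.3%), 272 higher (0.876%) and 132 lower (0.425%) in immature cells. Of 187 genes named here, which leave out Dusp6, Hspd1 and Ctsl, 19 were called, 9 higher and 10 lower. Without progenitor replicate 3, 345 probe sets and 14 of the named genes were called. The rule for naming genes took in calls of this contrast, so that this count is not read against the share of all probe sets.

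Hsd17b3 was the 1 member of the testosterone list that differed. It had signals of 417, 419, 410.2 and 218 in immature cells, against 46.7, 35.8 and 74.8 in progenitor cells, a difference of 2.48 ± 0.23 (adjusted p = 1.46e-05). Cyp17a1, Hsd3b1 and Cyp11a1 did not pass, with mean signals of 4898, 3776 and 2292 in immature cells and 5127, 3886 and 2302 in progenitor cells. Hsd11b1 (1.44 ± 0.32), Cyp2a3 (0.88 ± 0.21), Cd36 (2.10 ± 0.33), Hao2 (1.71 ± 0.24) and Ces1d (2.27 ± 0.28) were higher in immature cells than in progenitors as well as in stem cells. Sqle was lower (-0.72 ± 0.15) and was lower than in stem cells too.

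Some genes lay on opposite sides of the 2 comparisons. Cdkn1c was higher than in stem cells but lower than in progenitors, where its signals were 663, 594 and 789.7, a difference of -1.88 ± 0.29 (adjusted p = 0.00164). Kif20a (-0.81 ± 0.15), Cldn5 (-2.27 ± 0.52), Plvap (-0.86 ± 0.18) and Cpa1 (-2.72 ± 0.48) showed the same pair of directions. Nqo1 was lower than in stem cells and higher than in progenitors (0.84 ± 0.20). Ccnd2 (-1.22 ± 0.30) and Ccna2 (-0.90 ± 0.19) were lower than in both. Hhip, a membrane protein that binds and restrains hedgehog ligands, and Smo were not called against stem cells and were lower than in progenitors. Hhip had signals of 1.6, 2.3, 11.1 and 24.7 in immature cells, against 45.5, 55 and 45.7 in progenitor cells, a difference of -1.40 ± 0.21 (adjusted p = 0.00103), and Smo differed by -0.64 ± 0.16. Dmp1 (1.70 ± 0.26) and Prm3 (1.20 ± 0.18) were higher than in both.

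The list counts stand beside 0.876% of all probe sets higher and 0.425% lower than in progenitors. No share of all genes was computed for this contrast. By list, 7 of 24 germ cell markers, 4 of 45 antioxidant genes and 2 of 27 steroid metabolism genes were higher than in progenitors and none lower. Lower and never higher were 5 of 21 endothelium markers, 4 of 55 cell cycle genes, 2 of 14 hedgehog genes and 2 of 33 cholesterol genes. Of 45 lipid droplet and fatty acid genes 2 were higher and 1 lower, and each of the remaining lists had at most 1 call. Without progenitor replicate 3, 5 germ cell markers and 1 antioxidant gene were higher, and 1 endothelium, 1 cell cycle and 1 hedgehog gene were lower. Without immature replicate 4, 12 germ cell markers and 7 antioxidant genes were higher, and 8 endothelium, 13 cell cycle and 2 hedgehog genes were lower. In that fit 1 germ cell marker and 1 antioxidant gene were lower and 1 hedgehog gene higher. Other arrays left out gave fewer calls. Both without progenitor replicate 1 and without immature replicate 2, no endothelium marker was lower and 3 germ cell markers were higher. No steroid metabolism gene was higher without progenitor replicate 1 or 2, or without immature replicate 2 or 3. Only 1 cell cycle gene was lower without progenitor replicate 2, or without immature replicate 2 or 3.

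The calls depended on which arrays entered. Leaving out immature replicate 4 gave 42 called named genes, leaving out replicate 2 of that group 10, and leaving out its replicate 3 gave 11, as did leaving out progenitor replicate 2. Of the 19 calls 10 held with any 1 immature or progenitor array left out, those of Hsd17b3, Cd36, Hao2, Ces1d, Hhip, Kif20a, Cdkn1c, Dmp1, Prm3 and Cpa1. The other 9, of Hsd11b1, Cyp2a3, Sqle, Smo, Ccnd2, Ccna2, Nqo1, Cldn5 and Plvap, were each lost without at least 1 array. For Ces1d progenitor replicate 3 was the high array at 1109, against 357 and 419 on the other 2, and for Cldn5 at 753, against 394 and 349.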

How the data were processed

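The study hybridised RNA of 19 rat cell samples to Affymetrix arrays. Biotin-labelled cRNA came from 6 ug of Trizol-extracted, column-purified total RNA, per the labels' protocols. Each deposited value is a linear intensity of 1 probe set on 1 array. It was computed by MAS5 under GCOS, per the submitters' processing notes, and the trimmed mean (2%) of the authors' table is 100 on each array. The genome build behind the array annotation is not given in the sources used here. No detection calls were used, so dim signals have no tested floor, and the number of arrays limits the precision.

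Of 31099 probe sets, 57 controls were left out. Platform annotation gave 20826 probe sets 1 symbol, 436 several and 9780 none, and 20758 symbols were found by gene ID in a RefSeq table. A gene was represented by its probe set with the highest mean over all arrays. Values were analysed as log2(signal + 16) in limma 3.58.1 (R 4.3.3) with an intensity trend, all 19 arrays and 5 group means, two-sided, with Benjamini-Hochberg adjustment over 31042 probe sets and calls at an adjusted p under 0.05. The procedure was run on simulated independent arrays in which a small share of probe sets differed, in both directions alike. That setting is unlike these data, so it says nothing on the scaling or on the split between higher and lower calls. Python 3.11.15, pandas 2.3.3 and matplotlib 3.10.9 handled tables and plots.

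The comparison, the 26 gene lists (19 pathway, 7 marker, 770 of 886 symbols measured) and the tests were chosen with earlier results of these data known. Named genes were the 12 largest rises and falls among called genes with groups that do not overlap and a brighter group at or above the median probe set (mean signal 29.9), any member of 5 lists (testosterone synthesis, steroid metabolism, Leydig regulators, hedgehog, stem markers), the 4 called members of other pathway lists and the 3 of marker lists with the smallest adjusted p in each direction, and markers brightest in stem cells. Predicted genes were passed over. Genes called against progenitor cells among these were given too. Where a called gene among the 187 had further probe sets, none of them was called the other way. For Nr3c1, Igf1r, Adcyap1r1, Pde8b, Stk36, Cdkn2c, Igf2bp2, Dkk3 and Clu no further probe set was called.

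Alternatives were quantile normalization, median centring, pseudocounts of 1 and 64, a fit without an intensity trend or with array weights, one without the dimmest 40% of probe sets, only the 9 arrays, a 2-fold minimum, the replicate number as a block, averaging a gene's probe sets, immature replicates 2 and 3, the closest pair, averaged, and leaving out each immature and stem array in turn. Leaving out each progenitor array was added after seeing the data.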

Additional observations from a re-analysis of the deposited data

Results flagged for a closer look

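In a group of 4 or 5 arrays, an array was singled out where its gap to the nearest other array, divided by the range of the group, passed Dixon's 95% critical value. Over the 374 gene and group pairs of the named genes this happened 37 times, and chance gives about 1 in 20. Each signal below stands beside the range of the other arrays of its group, and no cause was tested.

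Immature replicate 4 was the array singled out most often, for 14 genes. It was low for Hsd17b3 at 218 (others 410.2 to 419), Tspo at 417 (others 1074 to 1145) and Inha at 635 (others 1248 to 1309). Also low were Amhr2 at 128 (others 347 to 374) and Angptl4 at 748 (others 1330.3 to 1433). It was high for Nr2f2 at 1365 (others 941 to 957), Gli1 at 346 (others 191 to 201) and Cdkn1c at 431 (others 121 to 130.1). Also high were Lama2 at 2355 (others 1121 to 1241), Tgfbi at 1911 (others 1274 to 1300.1) and Sfrp1 at 971 (others 601 to 623). Also high were Pbx3 at 154 (others 84.8 to 92.5), Jun at 3000.1 (others 1205 to 1372) and Cpa1 at 1563 (others 166 to 182).

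Immature replicate 1 stood out for 5 genes, each time on the low side. It was low for Cyp11a1 at 1758 (others 2436 to 2506), Cyp1b1 at 1776 (others 2656 to 2885) and Insl3 at 1602 (others 4075 to 4738). Also low were Adh1c at 2346 (others 3217 to 3274) and Ccnd2 at 18.6 (others 46.3 to 53.5).

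Stem replicate 1 stood out for 7 genes. It was low for Sqle at 544 (others 763 to 818), Nes at 147 (others 248 to 284) and Ccnd1 at 578 (others 1048 to 1279). It was high for Cdkn1b at 328 (others 170.5 to 189.7), Matn2 at 46.3 (others 14.6 to 19.1) and Runx1 at 467 (others 339.6 to 371). Also high was Laptm5 at 16.7 (others 5.7 to 7.0).

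Stem replicate 3 stood out for 7 genes as well. It was low for Pdgfra at 448 (others 759 to 929.6). It was high for Nr5a1 at 96.3 (others 70.5 to 75.1), Ghr at 46.4 (others 14.5 to 20) and Defb24 at 17.0 (others 1.4 to 4.2). Also high were Igfbp5 at 35.2 (others 2.8 to 8.1), Cldn5 at 28.5 (others 6.8 to 11.5) and Alas2 at 10.3 (others 1.8 to 2.8).

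Stem replicate 4 stood out for 3 genes. It was low for Fabp5 at 1506 (others 2048 to 2299). It was high for Srd5a3 at 286 (others 254 to 259.5) and Ccl11 at 58.3 (others 8.0 to 14.8).

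Stem replicate 5 stood out for 1 gene. It was high for Ccnd3 at 943 (others 809 to 840.2).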

How the results depend on the processing

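The 173 called genes of the 187 named were refitted under 24 alternatives, and 155 of them kept their call and direction under all. Of 4481 gene results over those alternatives 32 lost and 25 gained a call, and none reversed. The probe sets called numbered 12324, with 7308 higher and 5016 lower. Median centring gave 4480 higher and 8375 lower, and the 2-fold minimum 4532, with 2502 higher and 2030 lower. Leaving out 1 array gave 11162 to 12912 calls, 6363 to 8079 higher and 4591 to 5164 lower. The replicate numbers of the labels did not pair the samples: same-numbered immature and stem arrays deviated from their group means with correlations of -0.322 to -0.0228. With the replicate number as a block 11304 probe sets were called, 6577 higher and 4727 lower, and this is no sign of a weaker effect. Of the named genes, 19 were called against progenitors, against 43 with array weights, 11 with immature replicates 2 and 3 averaged, 12 with the 2-fold minimum, 12 with a pseudocount of 1 and 10 to 42 with 1 array left out (11 without immature replicate 3, 11 without progenitor replicate 2). Leaving out progenitor arrays was chosen after seeing the data. The fit of only the 9 arrays gives no value for progenitors, and the mean of a gene's probe sets gives no count of probe sets. The accessory gland list had 11 calls without immature replicate 1. The cause of these moves was not tested. Dim signals limit the precision of every difference in which 1 group lies near the bottom of the scale.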
